A study of Mus musculus with 12 samples.

Results

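The genes described here are 10 components of the canonical Wnt pathway: the secreted inhibitors Wif1, Sfrp1, Sfrp2, Dkk1 and Dkk3, the feedback inhibitors Axin2, Rnf43 and Nkd1, and the transcription factors Lef1 and Tcf7. They were taken by symbol from a gene count table of PYMT-R221A, a line of mouse mammary tumour cells, in which all 10 were found among 55335 genes. The 12 libraries of polyadenylated RNA fell into 4 groups of 3. These were control cells, cells given KCC-07 at 40 µM, cells transfected with a scramble siRNA, and cells transfected with an siRNA against Mbd2 (siMBD2). KCC-07 is named in the series title as a small molecule inhibitor of the MBD2 pathway. The labels name no siRNA for the control group, no vehicle for KCC-07 and no length for either treatment. Every group came from this 1 cell line, and the labels number the replicates of each group from 1 to 3 as biological replicates, with the number given as a batch.

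Wnt ligands bind Frizzled and LRP5 or LRP6 receptors, which stops the destruction of β-catenin and lets it act in the nucleus with factors of the TCF/LEF family. Secreted inhibitors act before this step: WIF1 and the SFRP proteins bind Wnt ligands, and DKK1 binds the LRP receptors. Axin2, Rnf43 and Nkd1 are widely used readouts of the pathway, since β-catenin drives their transcription and their products dampen it. MBD2 binds methylated CpG sites and recruits repressor complexes. Promoter methylation of secreted Wnt inhibitors is well known in human breast tumours, which is why this gene family is of interest where MBD2 is inhibited or depleted.

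Because MBD2 binds methylated CpG, the CpG content of the promoters bears on which of these genes could carry such sites. RefSeq promoter windows (GRCm38.p6, 250 bases before to 50 bases after the start) were matched for 8 of the 10 genes, in 13 windows. The 4 below are those of Wif1, the inhibitor whose mRNA fell, Tcf7, which held the most CpG of the 13, and Sfrp2 and Dkk1, which gave almost no reads. Each is printed 5′ to 3′ on the gene's strand, with every CpG in capitals.
Wif1, chr10:121033754-121034053, plus strand: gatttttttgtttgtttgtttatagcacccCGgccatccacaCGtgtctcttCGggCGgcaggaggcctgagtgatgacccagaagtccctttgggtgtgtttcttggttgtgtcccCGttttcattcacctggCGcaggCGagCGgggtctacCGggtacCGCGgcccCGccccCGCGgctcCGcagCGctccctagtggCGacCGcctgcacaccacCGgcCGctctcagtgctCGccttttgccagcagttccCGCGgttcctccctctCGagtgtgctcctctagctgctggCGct
Tcf7, upstream start, chr11:52282965-52283264, minus strand: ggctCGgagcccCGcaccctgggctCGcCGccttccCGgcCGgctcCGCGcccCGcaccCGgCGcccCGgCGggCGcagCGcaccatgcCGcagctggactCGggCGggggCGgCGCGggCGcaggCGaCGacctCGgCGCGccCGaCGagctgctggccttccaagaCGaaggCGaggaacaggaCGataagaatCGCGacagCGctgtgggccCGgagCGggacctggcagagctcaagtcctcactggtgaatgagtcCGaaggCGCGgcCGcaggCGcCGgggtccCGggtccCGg
Sfrp2, chr3:83766071-83766370, plus strand: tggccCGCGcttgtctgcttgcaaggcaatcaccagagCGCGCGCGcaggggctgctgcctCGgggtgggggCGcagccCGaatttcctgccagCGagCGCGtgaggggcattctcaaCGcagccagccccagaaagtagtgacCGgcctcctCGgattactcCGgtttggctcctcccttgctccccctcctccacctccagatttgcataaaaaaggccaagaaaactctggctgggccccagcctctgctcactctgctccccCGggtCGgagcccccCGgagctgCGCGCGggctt
Dkk1, chr19:30549447-30549746, minus strand: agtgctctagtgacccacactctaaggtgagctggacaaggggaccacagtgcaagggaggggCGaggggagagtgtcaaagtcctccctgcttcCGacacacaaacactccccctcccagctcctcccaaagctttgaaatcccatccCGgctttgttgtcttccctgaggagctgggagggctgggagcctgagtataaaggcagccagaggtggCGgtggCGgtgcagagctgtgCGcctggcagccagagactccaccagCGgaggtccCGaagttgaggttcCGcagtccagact
The Wif1 window held 25 CpG and the Tcf7 window 45, against a median of 7 over 32851 RefSeq promoter windows of the same length. This Tcf7 window holds an ATG followed by an open reading frame to its end, so part of it may be coding sequence. Its 45 CpG may therefore not describe promoter sequence alone. The Sfrp2 window held 22 and the Dkk1 window 9. Outside these 4, Axin2 held 31, the Lef1 windows between 5 and 21, and Nkd1 6. The Rnf43 windows held 3 and 10, and the second Tcf7 window 17. The Nkd1 window, from 88527383, lay inside the gene, which begins at 88521354 in GENCODE M21. No window at that Nkd1 start was counted. The Lef1 windows with 5 and 8 CpG, both Rnf43 windows and the second Tcf7 window also lay inside their genes. Methylation was not measured in these libraries, so the counts describe the sequence alone. The TCF/LEF core motifs CTTTGAT and CTTTGAA were searched on both strands. They occurred in 1 of the 13 windows, that of Dkk1, and in 8.65% of all the windows.

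Library totals ran from 25831299 to 33956792 counts, and 14935 genes passed the filter on low counts. Mbd2, the targeted gene, stood at 75.8, 83.2 and 72.5 TMM-scaled CPM (counts scaled to library size) with scramble, and siMBD2 brought it to 35.7, 34.7 and 30.6 CPM. The 2 groups did not overlap, and the fold was 0.436 (log2 −1.20, SE 0.0867, edgeR adjusted p = 0.000197). With KCC-07 the Mbd2 fold against control was 0.998, at an edgeR adjusted p of 0.991. The mitochondrial share of counts was highest in replicate 3 of each group, at 2.70 to 3.90%, against 1.45 to 2.32% in the other libraries. Among luminal epithelial markers, Krt8 averaged 505, Cdh1 347, Epcam 257 and Krt18 202 CPM over the 12 libraries, but Krt19 only 1.33 CPM. Basal markers were present as well, with Krt14 at 429, Trp63 at 36.1, Krt5 at 8.28 and Oxtr at 3.01 CPM. The myoepithelial markers Acta2 and Myh11 stayed under 1 CPM in every group mean.

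Of the 10 genes, 7 passed the filter and were tested: Wif1, Sfrp1, Axin2, Rnf43, Nkd1, Lef1 and Tcf7. Compared per kilobase of exon, Sfrp1 stood highest in control cells at 55.3 ± 9.94 CPM per kb (SD, n = 3). Tcf7 followed at 19.9 ± 1.92 and Wif1 at 12.8 ± 2.24 CPM per kb. These 3 genes kept that order in each of the 4 groups, with no overlap between neighbours. Nkd1 at 1.45 ± 0.191 and Rnf43 at 1.43 ± 0.531 CPM per kb overlapped in control cells. Axin2 at 0.257 ± 0.0970 and Lef1 at 0.181 ± 0.0388 CPM per kb also overlapped there, and in the other 3 groups Axin2 lay above Lef1 in each library. The cells thus held abundant mRNA for Sfrp1, a secreted Wnt binder, and for Tcf7, and little for Axin2 and Lef1.

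**Figure D1:**
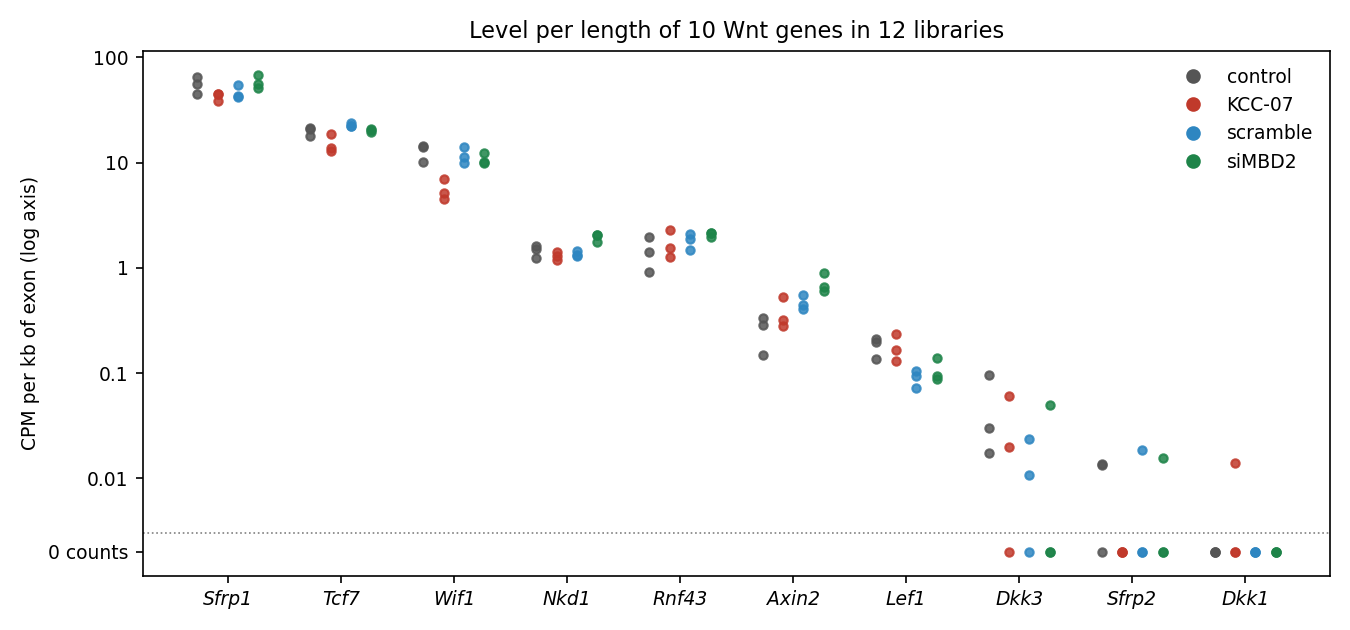
Level of each of the 10 genes in CPM per kb of exon on a log axis, 1 point per library, coloured by group; points below the dotted line are libraries with 0 counts. Sfrp1, Tcf7 and Wif1 lie above the rest in every library, and Dkk3, Sfrp2 and Dkk1 lie at the bottom.

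The secreted inhibitors Dkk1, Sfrp2 and Dkk3 were close to or at zero in all groups, and neither KCC-07 nor siMBD2 brought them to a level that passed the filter. Dkk1 gave 1 count in the 12 libraries, in KCC-07 replicate 1. Its 0 counts in the control group, over the 3 libraries together, allow up to 0.0309 CPM, and its 0 in the siMBD2 group up to 0.0328 CPM (3 counts over the group, counting error only). Sfrp2 gave 4 counts in all, 1 each in control 1, control 3, scramble 2 and siMBD2 2, and its exons overlap those of Gm26771 on the opposite strand, so even these are uncertain. Its 0 counts in the KCC-07 group allow up to 0.0358 CPM. Dkk3, a divergent member of the DKK family, gave 32 counts. They numbered 11, 3 and 2 in the control libraries, 6, 2 and 0 with KCC-07, 0, 2 and 1 with scramble, and 0, 5 and 0 with siMBD2. No difference in these 3 genes was detectable at this depth. Fitted without the filter, all 3 had an edgeR adjusted p of at least 0.492 in every comparison.

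Wif1, whose product binds Wnt ligands outside the cell, fell with KCC-07 both in the fit with 1 mean per group, where it was the 1 gene of the 7 called, and in the fit paired by replicate, where Sfrp1 and Tcf7 fell as well. It was measured at 24.8, 34.5 and 33.8 CPM in control replicates 1 to 3 and at 12.4, 17.0 and 10.9 CPM in KCC-07 replicates 1 to 3. Every KCC-07 library lay below every control library. The fold was 0.433 (log2 −1.21, SE 0.198, 95% interval −1.64 to −0.78, edgeR adjusted p = 0.00843), and the differences within replicate pairs were −1.0, −1.02 and −1.64 on the log2 scale. In the same comparison 5.65% of the tested genes passed the threshold, 2.08% by falling, and with 7 genes a count of 1 cannot be set apart from that background. The groups were free of overlap for 22.9% of genes, and for 1 of the 7. Leaving out any 1 library of the comparison left Wif1 past the threshold, with log2 folds from −1.41 to −1.08. When the 6 libraries of the comparison were fitted alone, Wif1 did not pass (log2 −1.21, edgeR adjusted p = 0.0999), and in that fit 1 gene of all passed.

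With the siRNAs, Wif1 stayed near the control level. The scramble libraries held 24.1, 27.2 and 34.3 CPM and the siMBD2 libraries 24.2, 24.4 and 29.6 CPM, and these groups overlapped. The fitted log2 difference was −0.13, with a 95% interval of −0.55 to 0.30 (edgeR adjusted p = 1). The KCC-07 effect on Wif1 differed from the siMBD2 effect by −1.08 on the log2 scale, at an edgeR adjusted p of 0.1003, so a difference between the treatments was not established at the threshold. DESeq2 gave an adjusted p of 0.0102 for it, edgeR without the filter on low counts 0.0492, and edgeR without replicate 3 of each group 0.0466.

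Markers of other cell types moved in the same comparison. The summed level of 6 fibroblast markers was 186 to 218 CPM in the control and 101 to 160 CPM in the KCC-07 libraries. That sum was carried by Pdgfra, Col1a1 and Pdgfrb, while Thy1 gave 0 counts and Dcn and Col1a2 stayed under 1 CPM. In the scramble group the same sum was 143 to 147 CPM and in the siMBD2 group 139 to 159 CPM. The 6 basal markers summed to 468 to 582 CPM in control and 251 to 550 CPM in KCC-07 libraries, which overlap. Krt14 made up most of that sum, at group means of 442 and 366 CPM. The means of Krt5 (13.4 and 4.91 CPM), Trp63 (55.9 and 31.6 CPM) and Oxtr (2.88 and 0.810 CPM) were also lower with KCC-07. Those of Acta2 (0.659 and 0.675 CPM) and Myh11 (0.213 and 0.337 CPM) were not. The 5 luminal markers summed to 1117 to 1282 CPM in control and 1338 to 1383 CPM in KCC-07 libraries, without overlap. The means of Krt18, Krt19, Epcam and Cdh1 were higher with KCC-07, whereas that of Krt8 was lower (510 and 455 CPM). Scramble libraries also lay above the control range, at 1348 to 1407 CPM, and siMBD2 libraries held 1248 to 1381 CPM. The 6 leukocyte markers summed to 3.10 to 5.30 CPM in control and 7.41 to 8.90 CPM in KCC-07 libraries, with Adgre1 at 0 counts in all 12. That sum was carried by Cd68 (group means 0.808 and 3.34 CPM) and Csf1r (3.56 and 4.84 CPM). Ptprc stood at 0 and 0.0711 CPM, Cd79a at 0.0528 and 0.0449 CPM, and Cd3e at 0 in both groups. The 4 endothelial markers stayed under 7 CPM in every library with Cdh5 at 0, and of the 3 adipocyte markers Adipoq and Plin1 were at 0. The part of these markers in the Wif1 result was not tested, and in bulk RNA fewer cells of a type and less RNA per cell cannot be told apart.

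The 2 genes whose profile over the 12 libraries lay nearest to that of Wif1 were Hhat and Plac9b. Likeness was the root mean square difference of centred log2 CPM, which was 0.209 for Hhat and 0.238 for Plac9b, against a median of 0.573 over 11122 candidate genes. Hhat, which encodes an acyltransferase of Hedgehog ligands, fell with KCC-07 from 13.7 to 7.31 CPM in the group means (log2 −0.90, edgeR adjusted p = 0.00579). Plac9b fell from 15.6 to 7.72 CPM (log2 −1.01, edgeR adjusted p = 0.0208), but it has near-identical copies whose reads may be shared, and it missed the threshold without control 1, control 2 or KCC-07 replicate 1. The KCC-07 libraries weigh in the choice of both genes, so these folds are a description.

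**Figure D2:**
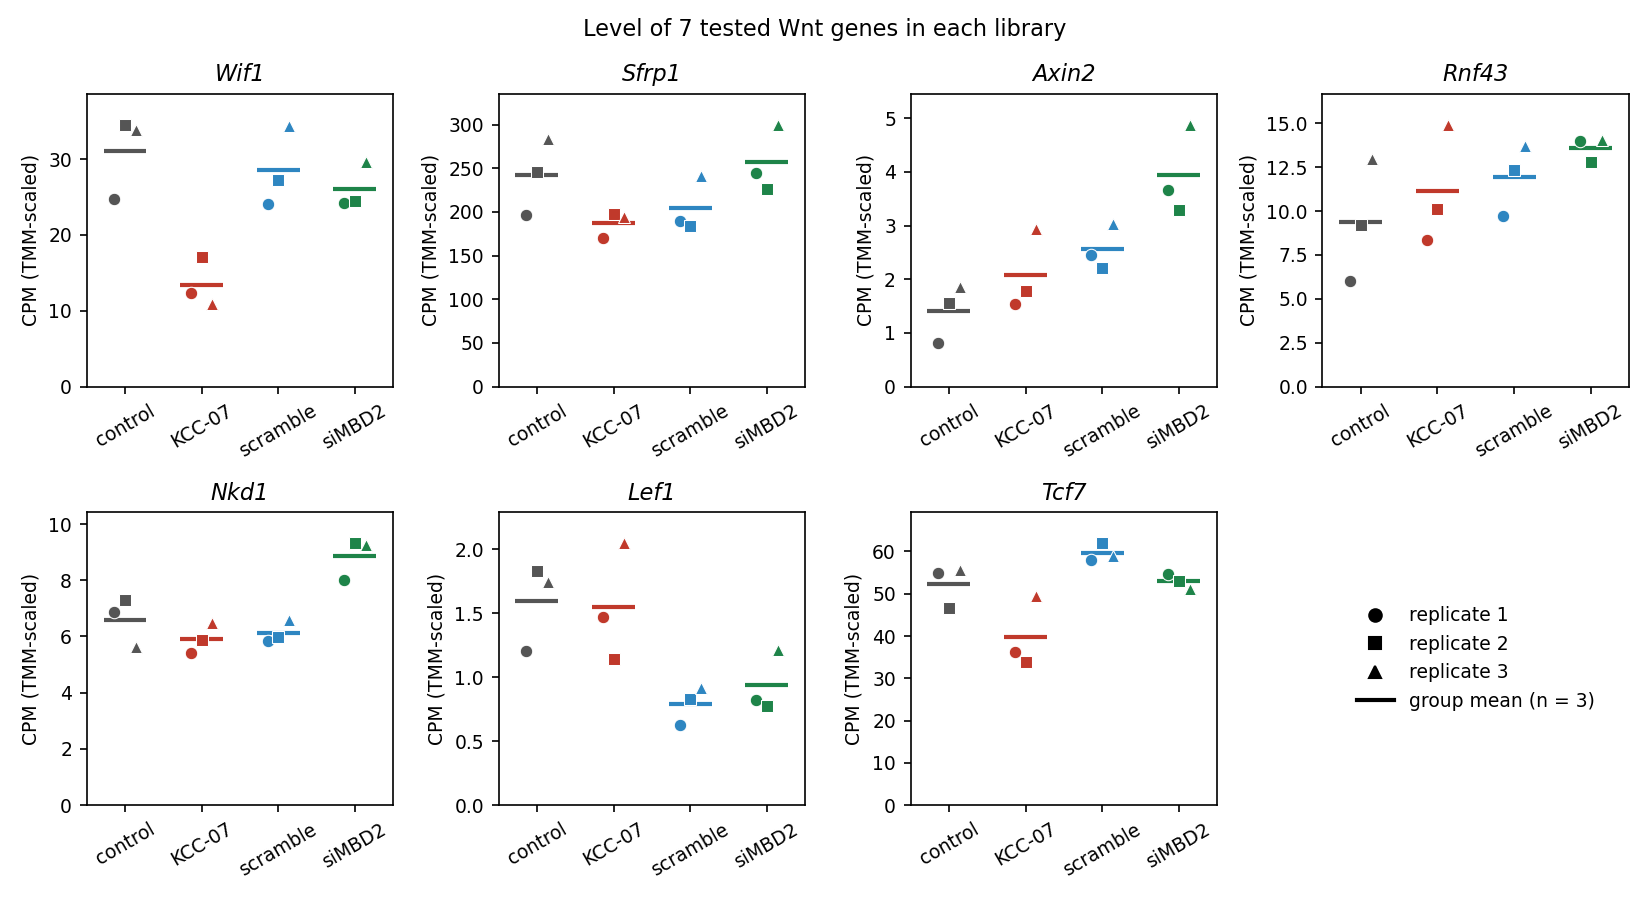
TMM-scaled CPM of the 7 tested genes in each of the 12 libraries, with 1 marker shape per replicate number and a bar at the group mean; each axis starts at 0. The KCC-07 libraries of Wif1 lie at 10.9 to 17.0 CPM, below all other libraries, and the siMBD2 libraries of Nkd1 lie above the rest.

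Sfrp1, the other secreted Wnt binder with appreciable mRNA, was lower with KCC-07 once libraries of the same replicate number were compared. Correlations between libraries did not show a pairing of replicates 1 and 2, so these pairs follow the labels. Control replicates 1 to 3 were at 197, 245 and 284 CPM, and those given KCC-07 at 170, 197 and 194 CPM. The groups overlap narrowly, since KCC-07 replicate 2 sat at the level of control 1, but the difference had the same sign in all 3 pairs (−0.21, −0.32 and −0.54). Without the pairing the log2 fold was −0.37 (SE 0.154, edgeR adjusted p = 0.164). With the replicate as a block it was −0.36 (SE 0.0767, edgeR adjusted p = 0.0155), past the threshold, and 21.8% of tested genes passed in that fit. It did not pass when the 6 libraries of the comparison were fitted alone with the block (log2 −0.36, edgeR adjusted p = 0.128), a fit that called 2.84% of genes. With siMBD2 the order was the opposite: 189, 184 and 241 CPM in scramble and 245, 226 and 300 CPM in siMBD2 libraries, higher in every pair by 0.37, 0.30 and 0.32. That siMBD2 difference did not pass (log2 0.33, edgeR adjusted p = 0.952, or 0.139 with the block). It passed when its 6 libraries were fitted alone with the block (2.05e-05), a fit that called 19.8% of all genes. The KCC-07 effect on Sfrp1 differed from the siMBD2 effect by −0.70 on the log2 scale, with an edgeR adjusted p of 0.166. With a block shared across the arms the difference was −0.69, with an edgeR adjusted p of 0.0476.

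None of the feedback inhibitors passed the threshold with KCC-07 or with siMBD2 over the 12 libraries, with or without the block. Axin2 (edgeR adjusted p = 0.0192) and Nkd1 (0.00470) passed with siMBD2 when its 6 libraries were fitted alone with the block. That fit called 19.8% of all genes. Axin2, the scaffold of the β-catenin destruction complex that β-catenin itself induces, was measured at 0.820, 1.57 and 1.86 CPM in control and 1.54, 1.78 and 2.94 CPM in KCC-07 libraries. These groups overlap (log2 0.56, SE 0.338, edgeR adjusted p = 0.330). The scramble libraries stood at 2.45, 2.22 and 3.02 CPM and the siMBD2 libraries at 3.65, 3.29 and 4.88 CPM. Each siMBD2 library was higher than each scramble library, and the pairs differed by 0.58, 0.57 and 0.69, with a fitted log2 difference of 0.62 (95% interval −0.09 to 1.33, edgeR adjusted p = 1). Axin2 exons overlap those of Gm11670 on the opposite strand, and whether the counting used strand is not given in the sources used here, so its values are uncertain.

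Nkd1, which binds Dishevelled, was the member with the smallest unadjusted p under siMBD2. The scramble libraries held 5.84, 5.98 and 6.59 CPM and the siMBD2 libraries 7.99, 9.31 and 9.24 CPM. No siMBD2 library fell within the scramble range, and the log2 difference was 0.53 (SE 0.149, 95% interval 0.20 to 0.85). Its unadjusted p of 0.00424 became an edgeR adjusted p of 0.483, and 0.215 with the block, so the difference was not called over all genes. In control cells Nkd1 read 6.88, 7.29 and 5.62 CPM, and with KCC-07 5.42, 5.86 and 6.47 CPM, which overlap (log2 −0.16, 95% interval −0.48 to 0.17, edgeR adjusted p = 0.549). The KCC-07 and siMBD2 effects on Nkd1 differed by −0.68 (edgeR adjusted p = 0.161).

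Rnf43, an E3 ubiquitin ligase that removes Frizzled receptors from the membrane, showed overlapping groups in each comparison. It was measured at 6.0, 9.19 and 12.96 CPM in control, 8.32, 10.1 and 14.9 CPM in KCC-07, 9.74, 12.4 and 13.7 CPM in scramble and 14.002, 12.8 and 14.1 CPM in siMBD2 libraries. The log2 difference was 0.24 with KCC-07 (95% interval −0.35 to 0.83, edgeR adjusted p = 0.616) and 0.19 with siMBD2 (95% interval −0.40 to 0.78, edgeR adjusted p = 1). For both Rnf43 and Axin2, replicate 3 was the highest library of its group in all 4 groups, a pattern that 8.96% of tested genes shared.

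Tcf7, which encodes the β-catenin partner TCF1, was the transcription factor with the higher level. It stood at 54.8, 46.5 and 55.7 CPM in control cells, against 36.1, 33.7 and 49.4 CPM after KCC-07. The KCC-07 libraries were lower in each pair (−0.60, −0.46 and −0.17), yet KCC-07 replicate 3 lay above control 2. As for Sfrp1, a pairing of replicates 1 and 2 was not shown. The log2 fold was −0.40 (SE 0.132, edgeR adjusted p = 0.0943) without the pairing. It was −0.41 (SE 0.0900, edgeR adjusted p = 0.0164) with the block, and −0.58 (edgeR adjusted p = 0.00859) with KCC-07 replicate 3 left out. With the 6 libraries alone and the block it did not pass (edgeR adjusted p = 0.105). With the block over the 12 libraries, 3 of the 7 tested genes passed in this comparison, Wif1, Sfrp1 and Tcf7, and all 3 fell, where 9% of all tested genes fell. In the siRNA arm Tcf7 measured 57.9, 61.9 and 58.9 CPM with scramble and 54.7, 53.1 and 51.1 CPM with siMBD2. The siMBD2 libraries were lower without overlap, by a log2 difference of −0.17 (95% interval −0.46 to 0.12, edgeR adjusted p = 1, or 0.0269 with the 6 libraries alone and the block). The fit of the 6 libraries alone with the block called 19.8% of all genes.

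Lef1, the second TCF/LEF factor, was scarce. Its control values of 1.20, 1.83 and 1.74 CPM overlap the 1.47, 1.14 and 2.04 CPM found with KCC-07 (log2 −0.04, 95% interval −0.71 to 0.64, edgeR adjusted p = 0.956). The scramble libraries held 0.628, 0.832 and 0.911 CPM and the siMBD2 libraries 0.820, 0.773 and 1.21 CPM, which overlap too (log2 0.25, edgeR adjusted p = 1). Lef1 exons overlap those of Gm43352 on the opposite strand, which makes its values uncertain.

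Over the siMBD2 comparison as a whole, 0 of the 7 tested genes passed edgeR's threshold and 0 that of DESeq2, while 1 (Nkd1) was under 0.05 before adjustment in edgeR, where 5.26% of all genes were. The background was low, at 0.0402% of genes called, and with the block 0 of the 7 passed where 0.75% of genes did. When the 6 siRNA libraries were fitted alone with the block, 4 of the 7 passed (Sfrp1, Axin2 and Nkd1 higher, Tcf7 lower), and 19.8% of genes were called in that fit. Groups without overlap were seen for Axin2 and Nkd1, both higher, and Tcf7, lower, which is 3 of 7 where 22% of all tested genes showed it. For the difference between the KCC-07 and siMBD2 effects, 0 of 7 passed with edgeR, against 0.656% of genes. Before adjustment 3 were under 0.05 where 14.6% of genes were, and DESeq2 called 1 (Wif1), against 4.13% of genes. With the block, here shared across the arms, Sfrp1 was called and the background was 1.79%. Whether replicate numbers match across the arms is uncertain. Axin2 fitted effects were close in the 2 arms (difference −0.06), but the 95% interval ran from −1.10 to 0.97, so an equal response was not shown.

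**Figure D3:**
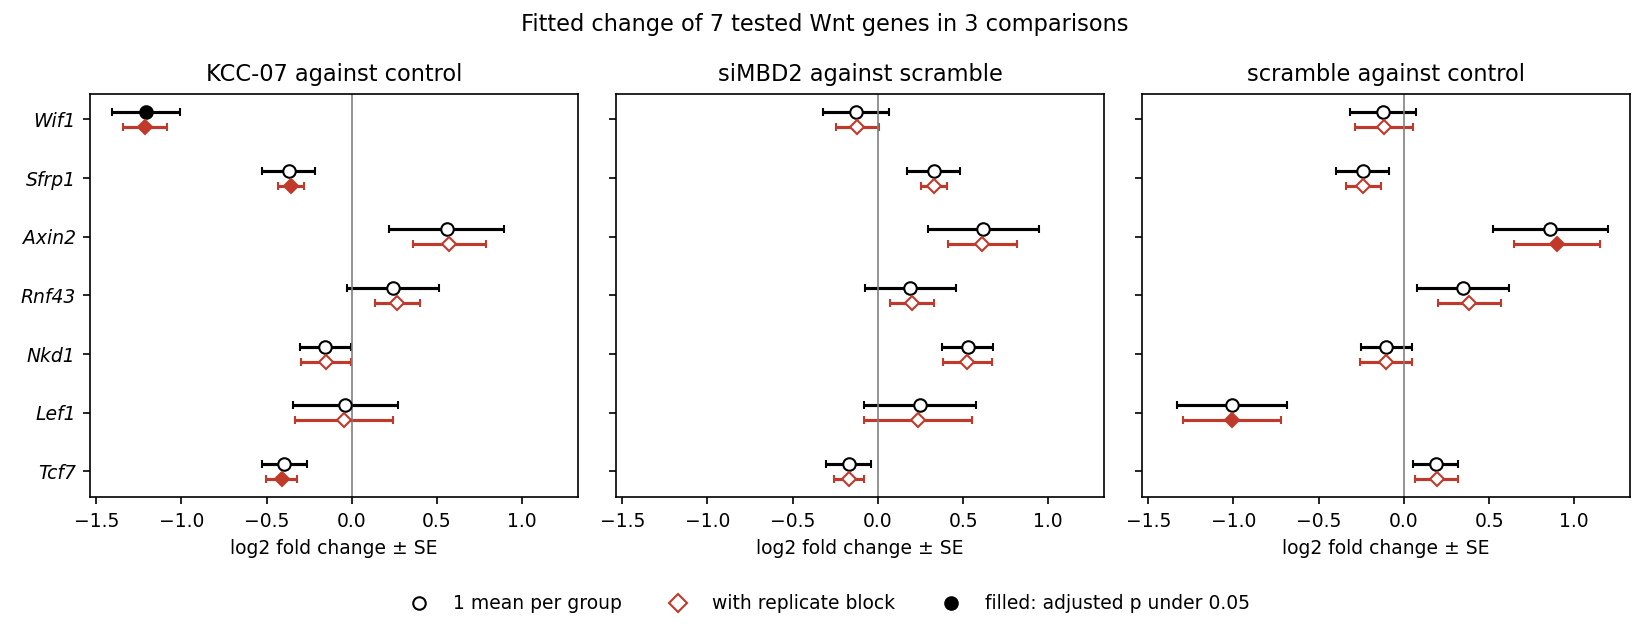
Fitted log2 fold change of the 7 tested genes with its SE with KCC-07 against control, siMBD2 against scramble and scramble against control, as circles from the fit with 1 mean per group and diamonds from the fit with a replicate block; filled symbols have an adjusted p under 0.05. Wif1 is filled in both fits with KCC-07, Sfrp1 and Tcf7 in the blocked fit alone, no gene with siMBD2, and Axin2 and Lef1 in the blocked fit of scramble against control.

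The scramble siRNA cells were also compared with the control cells, a comparison that shares its control libraries with that of KCC-07. With 7 genes, its counts cannot be set apart from the shares over all genes given below. Its block is shared across the drug and siRNA arms, whose replicate numbers may not match. Axin2 was higher in every scramble library than in any control library (log2 0.86, SE 0.337, edgeR adjusted p = 0.126, or 0.90 and 0.0417 with the block). Lef1 was lower without overlap (log2 −1.01, SE 0.322, edgeR adjusted p = 0.0728, or 0.0433 with the block). Tcf7 was higher without overlap (log2 0.19, edgeR adjusted p = 0.383). Without the block 0 of 7 passed with edgeR, against 8.79% of all genes. Before adjustment 2 were under 0.05 where 27.2% of all genes were, and DESeq2 called 1 (Lef1), against 15.4% of genes. The block brought 2 of 7 past the threshold, against 13.8% of genes, and neither passed with the 6 libraries alone and the block (edgeR adjusted p = 0.146 for Axin2 and 0.116 for Lef1). Groups without overlap numbered 3 of 7, where 33.2% of genes had them.

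The rest of the pathway was described with lists of 111 further genes, of which 76 were tested. With KCC-07, 4 rose and 0 fell, where 3.58% of all tested genes rose and 2.08% fell, and all 4 belonged to the list of other frequently used target genes, in which 15 of 20 were tested. The median log2 change of these 15 was 0.40, and 13 of them lay above 0. Over all 14935 tested genes the median was 0.02, and 7731 lay above 0. The list was chosen with earlier results of these data known, so this shift is a description. Cd44, an adhesion receptor for hyaluronan, rose from 160 ± 5.83 to 258 ± 59.8 CPM (SD, n = 3), with a log2 fold of 0.68 (SE 0.128, edgeR adjusted p = 0.0130). Ccnd1, the gene of cyclin D1, rose from 535 ± 28.3 to 693 ± 40.6 CPM (log2 0.37, SE 0.0814, edgeR adjusted p = 0.0232), and its exons overlap a gene on the opposite strand. Jag1, a ligand of Notch receptors, rose from 10.3 ± 4.21 to 29.4 ± 16.6 CPM (log2 1.52, SE 0.382, edgeR adjusted p = 0.0415). Ppard, a lipid-sensing nuclear receptor, rose from 77.1 ± 8.79 to 110 ± 11.5 CPM (log2 0.51, SE 0.127, edgeR adjusted p = 0.0400). Cd44 passed whichever library was left out, but not with the 6 libraries alone and the block (edgeR adjusted p = 0.0560). Ccnd1 did not pass in that fit (0.117), nor without control 1, control 2 or KCC-07 replicate 1, and Jag1 not without control 2, control 3, KCC-07 replicate 1 or KCC-07 replicate 2. Ppard passed only without KCC-07 replicate 3. These 4 genes are known to answer to many signals besides Wnt.

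In the other lists KCC-07 gave no called gene among 7 ligand and secretion genes (median log2 0.05), 18 receptors and agonists (−0.19), 5 other inhibitors (0.44), 17 cytoplasmic genes (0.07) and 14 nuclear partners (0.08). Before adjustment 20 of the 76 (26.3%) were under 0.05, as were 25.1% of all tested genes. With the replicate block 17 rose and 5 fell, where 12.8% of all tested genes rose and 9% fell. Wnt7b, a ligand chosen for mention after its values were seen, had a log2 fold of 0.63 and an edgeR adjusted p of 0.0556, or 0.0101 with the block. Wnt7b exons overlap those of AU022754 on the opposite strand. Porcn, the acyltransferase that Wnt ligands need for secretion, chosen in the same way, had −0.80 with 0.0727, or 0.0143 with the block. Znrf3, the paralogue of Rnf43 and likewise chosen, had 0.44 with 0.0818, or 0.00836 with the block.

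**Figure D4:**
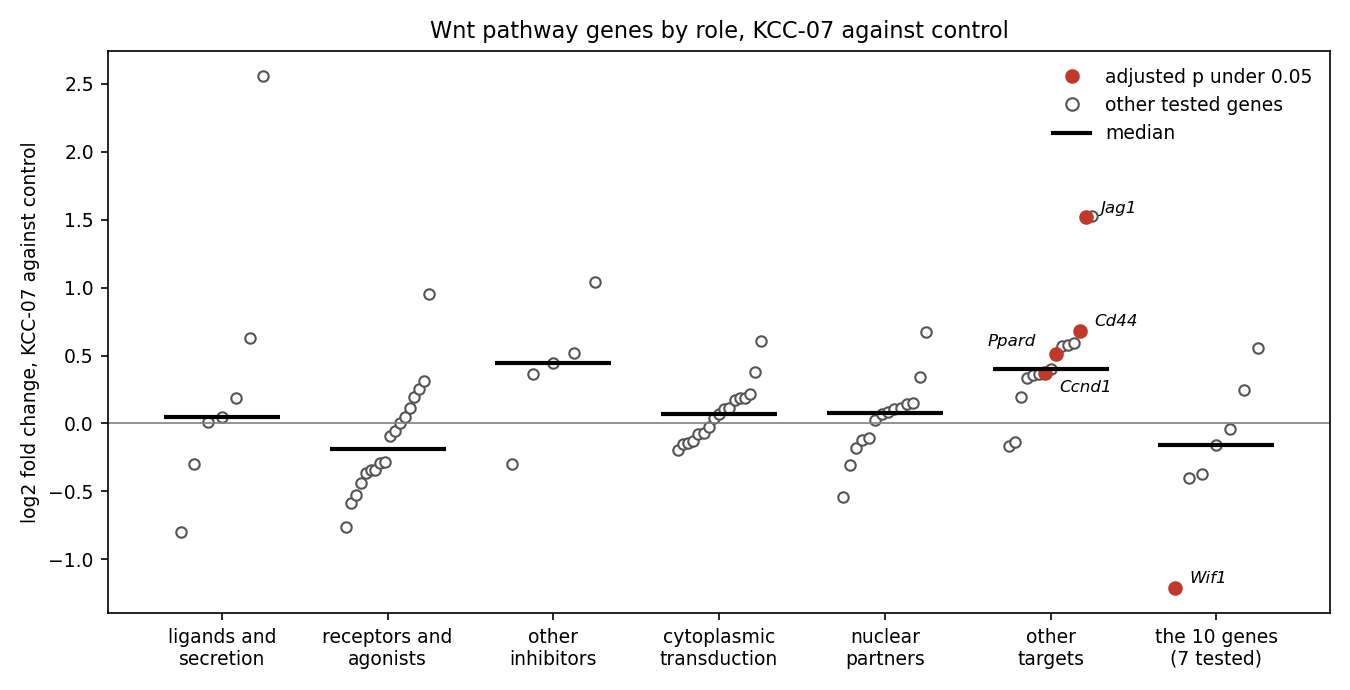
Log2 fold change with KCC-07 against control of each tested Wnt pathway gene, grouped by role, with a bar at the median of each list; filled points have an adjusted p under 0.05. The 4 filled genes that rose lie in the list of other targets, whose median is 0.40, and Wif1 is the filled gene that fell.

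With siMBD2, 0 of the 76 further genes passed with edgeR and 0 with DESeq2, and 3 were under 0.05 before adjustment in edgeR, where 5.26% of all genes were. The 4 target genes that rose with KCC-07 had siMBD2 log2 differences of −0.12 for Cd44, −0.15 for Ccnd1, −0.05 for Ppard and −0.22 for Jag1, each at an edgeR adjusted p of 1. Their KCC-07 and siMBD2 effects differed by 0.81 for Cd44 (edgeR adjusted p = 0.0694), 0.53 for Ccnd1 (0.0670), 0.56 for Ppard (0.177) and 1.74 for Jag1 (0.163). With a block shared across the arms the difference passed for Ccnd1 (edgeR adjusted p = 0.0470), Ppard (0.0272) and Jag1 (0.0309). In that fit 1.79% of all tested genes passed. These 4 genes were picked for their rise with KCC-07, and the difference uses the same libraries, so these values are a description. In scramble against control cells, 4 of the 76 rose and 1 fell, where 4.71% of all tested genes rose and 4.08% fell. The 4 were the receptors Fzd3 and Fzd6, the Nkd1 paralogue Nkd2 and the corepressor Tle1, and the 1 was Birc5, the gene of survivin. All 5 were named after their values were seen. Fzd6 had the largest of these changes (log2 0.88, SE 0.117, edgeR adjusted p = 0.00302) and passed whichever of the 6 libraries was left out; its exons overlap a gene on the opposite strand. With 1 library left out in turn, Fzd3, Nkd2 and Birc5 each passed in 1 of 6 fits, that without control 3, and Tle1 in 2 of 6, without control 3 or scramble replicate 3. Tle1 exons overlap those of Gm11250 on the opposite strand.

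The positions of the 10 genes are those of GENCODE M21 on GRCm38.p6. Wif1 lies on chromosome 10 from 121033960 to 121100650 and Sfrp1 on chromosome 8 from 23411502 to 23449632. Sfrp2 lies on chromosome 3 from 83766321 to 83774316, Dkk1 on chromosome 19 from 30545863 to 30549665, and Dkk3 on chromosome 7 from 112116017 to 112159057. Axin2, Rnf43 and Tcf7 share chromosome 11, at 108920349 to 108950783, 87662722 to 87735539 and 52252371 to 52283014. Nkd1 lies on chromosome 8 from 88521354 to 88594884 and Lef1 on chromosome 3 from 131110471 to 131224356.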

How the data were processed

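The authors deposited whole-number read counts per gene for 12 libraries, with no normalization. DRAGEN, DESeq2 1.44.0 and the builds mm10 and GRCm38.p6 are listed in the submitters' processing notes, with no role for each; the strand setting and the treatment of shared reads are not given in the sources used here. Symbols came from the table, and 54587 of its 55335 identifiers were found with their version in GENCODE M21. Tcf7 was matched under an earlier version.

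Genes were filtered on the 4 groups (minimum count 10, total 15), scaled by TMM, and modelled with edgeR 4.0.16 in R 4.3.3 (quasi-likelihood F test, 1 mean per group, 8 residual degrees of freedom). P-values were adjusted by Benjamini-Hochberg over the 14935 genes of each comparison, with a threshold of 0.05. Contrasts compared KCC-07 with control, siMBD2 with scramble, those 2 effects with each other, and scramble with control. A standard error is the log2 fold divided by the root of F. Libraries differed beyond sampling noise, and all 12 were counted. An exact permutation test of 3 against 3 libraries cannot go below p = 0.1, so none was used for single genes.

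The labels give the replicate number as a batch, which was used to pair libraries. Library names number replicate 3 of control and of KCC-07 as 4, but replicate 3 of both siRNA groups as 3. The titles and the batch label, which say 3, were used. Whether replicate 3 was 1 batch across the arms is therefore uncertain. Deviations of same-numbered libraries correlated over genes at 0.27, 0.28 and 0.48 between KCC-07 and control. The values were 0.09, 0.15 and 0.42 between siMBD2 and scramble, and 0.07, 0.02 and 0.13 between scramble and control. Replicates 1 and 2 across the groups correlated similarly, at 0.17 and 0.30, 0.18 and 0.21, and 0.01 and 0.10 in the same order. Pairs of replicate 3 with another number gave −0.42 to −0.03. Replicate 3 thus stood apart, and a pairing of replicates 1 and 2 was not shown. The block was fitted within each arm (4 residual degrees of freedom for its contrast) and across arms for the other 2 contrasts (6). Fits of 6 libraries alone with the block left fewer.

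Genes named were the 10 members, Mbd2, up to 5 called genes per pathway list and comparison of either treatment, and the 2 genes nearest to each called member. Wnt7b, Porcn, Znrf3, Fzd3, Fzd6, Nkd2, Tle1 and Birc5 fall outside that rule and were named after their values were seen. Of 111 listed pathway genes, 109 were in the table. Members and lists were chosen with earlier results of these data known. The fit was tested on simulated data. Alternatives were DESeq2 1.42.0, its size factors, other filters, the block, the 6 libraries of a comparison alone, and fits without each library or without replicate 3 of every group.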

Additional observations from a re-analysis of the deposited data

How the results depend on the processing

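Of 420 fold changes of the 7 tested genes under alternatives, 383 kept their direction and side of the threshold, 20 passed newly, 1 no longer passed and 16 changed sign. With KCC-07, the number of the 7 genes called was 1 (Wif1), and it was 3 with the replicate block (Wif1, Sfrp1, Tcf7), 0 with the 6 libraries alone, 2 without replicate 3 of every group (Wif1, Tcf7) and 1 to 2 with 1 library left out (2 without KCC-07 replicate 3). For the difference of the effects, 0 became 1 with no filter on low counts (Wif1), 1 with the replicate block (Sfrp1), 3 without replicate 3 of every group (Wif1, Sfrp1, Nkd1) and 1 with DESeq2 (Wif1). For scramble against control, 0 became 2 with the replicate block (Axin2, Lef1), 3 without replicate 3 of every group (Axin2, Lef1, Tcf7) and 1 with DESeq2 (Lef1). For siMBD2, 0 became 4 (Sfrp1, Axin2, Nkd1, Tcf7) with the 6 libraries alone and the replicate block. With 1 library left out these last 3 counts stayed at 0. The share of all tested genes called with KCC-07 was 5.65%, or 21.8% with the block and 25.6% without replicate 3. For the difference it was 0.656%, also with no filter, or 1.79% with the block, 10.6% without replicate 3 and 4.13% with DESeq2. For scramble against control it was 8.79%, or 13.8%, 41.1% and 15.4% in the same order. The siMBD2 fit of the 6 libraries alone with the block called 19.8%.

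The count of other pathway genes called with KCC-07 went from 4 to 22 with the replicate block, 34 without replicate 3 of every group and 11 with DESeq2, an alternative added for these genes after seeing the data. For the difference it went from 0 to 3, 13 and 7, and for scramble against control from 5 to 11, 42 and 13, in the same order. Of all tested genes, these 3 fits called 21.8%, 25.6% and 12.5% with KCC-07. They called 1.79%, 10.6% and 4.13% for the difference, and 13.8%, 41.1% and 15.4% for scramble against control.

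Changes of sign came with 1 library left out: Axin2 in the difference ranged from −0.39 to 0.19, Lef1 with KCC-07 from −0.28 to 0.15, Rnf43 with KCC-07 from −0.025 to 0.55, Rnf43 in the difference from −0.22 to 0.36, and Wif1 with siMBD2 from −0.23 to 0.027. None of these values passed a threshold. The cause was not tested.

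Over all genes, the 844 called with KCC-07 became 3251 with the replicate block, 1 with the 6 libraries alone, 412 with both, 1874 with DESeq2, 3832 without replicate 3 of every group, and 384 to 2112 with 1 library left out (2112 without control 3). For siMBD2, 6 became 112, 177, 2790, 85 and 162 in the same order, and 2 to 3 with 1 library left out. For the difference, 98 became 268 with the block, 617 with DESeq2, 176 with no filter, 1583 without replicate 3, and 11 to 320 with 1 library left out. For scramble against control, 1313 became 2062 with the block, 311 with the 6 libraries alone and the block, 2299 with DESeq2, 6164 without replicate 3, and 293 to 3110 with 1 library left out. The replicate block changed no other call of the 7 genes than those given. Dkk1, Sfrp2 and Dkk3 gave 1, 4 and 32 counts, too few to show a difference.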
